A study of Mus musculus with 6 samples.

Results

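The keratin genes are the genes whose symbol is Krt followed by a number alone, and 48 of the 23366 genes in each count file have such a symbol. They were measured by RNA-seq in the palatal shelf of E14.25 mouse embryos, in 3 wild type (WT) libraries and 3 libraries labelled Kmt2dfl/fl Wnt1-Cre (KO). The shelves grow from the upper jaw primordia on either side of the tongue and fuse to make the secondary palate. In the KO, Wnt1-Cre deletes the floxed Kmt2d gene, which encodes a histone methyltransferase mutated in human Kabuki syndrome, in cells of the neural crest lineage. The comparison addresses what that loss does to gene expression in the shelf. The palatal epithelium, where keratins are made, is not a neural crest derivative, so most cells that make keratins lie outside the lineage in which Wnt1-Cre deletes. The labels do not say which alleles or Cre the WT embryos carried. They describe the 3 libraries of a group as biological replicates, each from paired shelves, and p-values measure the spread between these libraries.

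Keratins form the intermediate filaments of epithelial cells. Each filament is built from equal parts of a type I and a type II keratin, so the genes are used in pairs, and the pair changes with the kind of epithelium. Simple epithelia use Krt8 with Krt18 or Krt19, and also Krt7. The basal layer of stratified epithelia uses Krt5 with Krt14, and Krt15 besides. Layers above it use Krt1 with Krt10 in skin and Krt4 with Krt13 in the oral and oesophageal lining. The periderm, the flat surface layer that covers embryonic epithelium and is shed from the shelf edges before they fuse, makes Krt17 and Krt6a beside simple keratins. Other keratins build the hair shaft and its sheaths.

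The 2 textbook pairs of basal and simple epithelia are shown by the stretch around the annotated start of each gene. It runs from 250 bases before to 50 after, on the gene's own strand. The sequences are from RefSeq on build GRCm38.p6, and the table matched 34 of the 48 keratins, with no entry for Krt15, Krt17 and Krt19. The basal pair is Krt5 at chr15:101712856-101713155, minus strand, and Krt14 at chr11:100205981-100206280, minus strand. The simple pair is Krt8 at chr15:102004293-102004592, minus strand, and Krt18 at chr15:102027966-102028265, plus strand. Capitals mark matches to the TATA box letters TATAAA on the gene's strand, to the AP-2 core GCCNNNGGC on either strand, and to the half-site of the p53 family on either strand, a family that includes the epithelial regulator p63.
Krt5: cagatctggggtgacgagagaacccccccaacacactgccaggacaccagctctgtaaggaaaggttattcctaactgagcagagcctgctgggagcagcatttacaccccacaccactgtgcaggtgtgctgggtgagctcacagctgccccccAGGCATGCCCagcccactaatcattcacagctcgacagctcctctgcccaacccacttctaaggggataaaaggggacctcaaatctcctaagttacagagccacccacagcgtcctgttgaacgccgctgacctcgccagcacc
Krt14: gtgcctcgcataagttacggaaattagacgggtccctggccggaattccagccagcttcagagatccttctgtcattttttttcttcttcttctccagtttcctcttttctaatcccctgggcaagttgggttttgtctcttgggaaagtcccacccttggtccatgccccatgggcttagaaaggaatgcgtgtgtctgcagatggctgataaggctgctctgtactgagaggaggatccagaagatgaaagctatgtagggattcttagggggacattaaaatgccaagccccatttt
Krt8: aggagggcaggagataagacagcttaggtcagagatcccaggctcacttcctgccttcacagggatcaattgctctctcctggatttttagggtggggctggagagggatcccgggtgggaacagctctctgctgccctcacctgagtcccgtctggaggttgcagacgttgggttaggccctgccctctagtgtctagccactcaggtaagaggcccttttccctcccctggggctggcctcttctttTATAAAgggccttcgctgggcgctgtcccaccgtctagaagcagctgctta
Krt18: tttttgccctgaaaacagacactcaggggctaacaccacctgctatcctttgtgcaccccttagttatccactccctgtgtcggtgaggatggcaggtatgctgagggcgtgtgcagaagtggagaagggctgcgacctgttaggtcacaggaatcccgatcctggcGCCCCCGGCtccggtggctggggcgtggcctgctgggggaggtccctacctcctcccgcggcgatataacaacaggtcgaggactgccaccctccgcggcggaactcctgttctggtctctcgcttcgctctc
Krt8 holds TATAAA from position -1 relative to the annotated start, Krt18 holds GCCNNNGGC from position -83, and Krt5 holds the p53 family half-site from position -95, with no overlap between matches. Krt14 holds none of the 3 in this window. Of all 32851 windows of this length in the table, 8.32% hold TATAAA, 16.6% hold GCCNNNGGC and 8.36% hold the half-site. Of the 35 keratin windows, 16 (45.7%) hold TATAAA, 6 (17.1%) hold GCCNNNGGC and 3 (8.57%) hold the half-site. A match of letters is a description and does not show binding.

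Libraries held 12721979 to 24916079 read pairs assigned to genes. KO replicate 2 stood apart: 47.5% of its pairs fell outside genes, against 12.3% to 18.1% in the other libraries, its log CPM correlated with the others at no more than 0.951 across genes, and it had the fewest gene counts. The ribosomal RNA precursor Rn45s took 16.2% to 20.7% of gene counts in the WT and 18.6% to 35.1% in the KO, and no keratin passed with it left out either. Fold changes of the tested keratins are therefore given both with KO replicate 2 and without that library. The Kmt2d transcript, listed under the older symbol Mll2, stood at 197, 211 and 171 CPM (counts relative to library sizes scaled by the trimmed mean of M-values) in WT replicates 2, 3 and 4 and at 254, 539 and 193 CPM in KO replicates 1, 2 and 3. The groups overlapped. The count covers undeleted exons and cells outside the crest too, so it does not check the KO label. Of 14233 genes tested, 76 (0.534%) passed an adjusted p of 0.05 in edgeR's quasi-likelihood test, 62 lower (0.436%) and 14 higher (0.0984%) in the KO. Without KO replicate 2 it was 306 (2.12%) of 14450, 227 lower and 79 higher (0.547%). The labelled tissue held both mesenchymal and epithelial transcripts. The 5 mesenchymal markers summed to 3591 to 3898 CPM in the WT and 3429 to 3832 CPM in the KO, and the 12 pan-epithelial markers to 378 to 461 CPM in the WT and 193 to 336 CPM in the KO.

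The E14.25 palatal shelf expressed few of its keratin genes. A mean of at least 1 CPM over the 6 libraries was reached by 12 of 48, of which 6 were type I (Krt14, Krt17, Krt15, Krt18, Krt19 and Krt10) and 6 type II (Krt5, Krt8, Krt7, Krt80, Krt1 and Krt4). Krt75 was also abundant enough to be tested, which made 13 keratins tested and 35 too low. Of the 48, 11 had no read in any library and 19 had 1 to 9 reads over all 6. A count of 0 in a library allows up to 3 counts, which is 0.107 to 0.227 CPM here and covers counting error only. Summed over the 6 libraries, the 3 basal keratins received 30241 counts, the 5 simple keratins 12372 and Krt16 and Krt17 together 9979. The 5 keratins of cornified suprabasal layers received 628 counts and the 3 of mucosal suprabasal layers 165. The 13 hair shaft keratins received 16 counts and the 8 inner root sheath keratins 12, so hair keratins were at or near the detection limit.

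Levels between genes were compared per kilobase of exon, with exon lengths from GENCODE M21. In the WT, Krt14 stood highest at 63.3 ± 9.08 CPM per kilobase (SD, n = 3), followed by Krt17 at 60.0 ± 13.4, Krt15 at 54.6 ± 8.10 and Krt5 at 40.5 ± 9.51 CPM per kilobase (SD, n = 3 each). Neighbours in this order overlapped in their range over the 3 libraries. Krt8 at 27.8 ± 4.62 and Krt18 at 22.1 ± 2.38 CPM per kilobase came next and were close to each other, and Krt19 at 14.6 ± 1.79 lay below both (SD, n = 3 each). A wide step separated these from Krt7 at 3.61 ± 0.488 and Krt10 at 1.94 ± 0.291 CPM per kilobase, and Krt4, Krt1 and Krt80 stood at 0.793, 0.739 and 0.450 CPM per kilobase. For Krt7 the step depends in part on its annotated exon length, 4094 bases against 1576 for Krt19. Without division by length the WT means were 14.8 CPM for Krt7 and 23.0 CPM for Krt19. The shelf thus held the basal set and Krt17 at the highest levels, simple keratins at intermediate levels, and the keratins of mature suprabasal layers at low levels. In the KO the order of the first 4 was Krt14 at 56.5 ± 22.1, Krt17 at 42.3 ± 16.1, Krt5 at 25.6 ± 9.76 and Krt15 at 19.8 ± 6.84 CPM per kilobase (SD, n = 3 each), so that Krt15 stood after Krt5. Short reads limit these levels. Of the 25-base stretches of the longest annotated transcript, 35.2% were shared with other genes for Krt14 (most often Krt16), 39.7% for Krt8 (most often the pseudogene Krt8-ps), 21.02% for Krt17, 19.7% for Krt5 and 18.3% for Krt18, against 5.85% for Krt15 and 3.42% for Krt19. The files list pairs with several alignments outside the genes, so the level of a gene with more shared sequence may be the more understated.

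Summed over type I genes the WT held 195 to 236 CPM per kilobase, and over type II genes 66.6 to 86.9. The ratio of type I to type II was 2.93, 3.18 and 2.71 in WT replicates 2, 3 and 4 and 3.26, 3.15 and 3.03 in KO replicates 1, 2 and 3. The groups overlapped. Krt6a and Krt6b, type II genes whose symbols end in a letter, are not in these sums.

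Every tested keratin had a negative log2 fold change (KO over WT) with all 6 libraries, and Krt14 alone a positive one without KO replicate 2, but no keratin passed the test across all genes with all 6 libraries. Of the 13 tested, 0 passed (edgeR quasi-likelihood test, adjusted p under 0.05), where 0.534% of all genes did, and 7 had an unadjusted p under 0.05, all lower, where 6.69% of all genes did. DESeq2 called 3 of the 13, Krt15, Krt19 and Krt8, all lower. It also called more of all genes, 486 of 14233, of which 325 were lower. A negative log2 fold change was shared by 48.5% of all genes, and by 46.7% without KO replicate 2, against 13 of 13 and 13 of 14 keratins. Without KO replicate 2, 3 of 14 tested keratins fell, Krt15, Krt18 and Krt19, where 1.57% of all genes fell, and 7 had an unadjusted p under 0.05, where 9.27% of all genes were lower at that level. The median log2 fold change of the 13 was -0.83, and -0.60 over the 14 tested without KO replicate 2, beside medians of 0.011 and 0.016 over all genes. In 9 of the 13 every KO library lay below every WT library, as in 11.2% of all genes, and the 12 named keratins held 8 of these. A gene that is abundant only in the WT can pass the abundance filter through that group, as Krt75 did, so these counts describe the keratins that passed and not all 48. The lowest value of the 6 libraries was that of KO replicate 2 in 12 of the 13. Such separation was not particular to keratins. Every KO library also lay below every WT library in 11 of the 12 pan-epithelial markers. Of these 12, 8 had an unadjusted p under 0.05, all lower. Of the further lists below, 5 of 10 basal, 4 of 9 anchor and 4 of 10 periderm and differentiation genes separated this way. In whole tissue, fewer epithelial cells and less keratin RNA per cell cannot be told apart.

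**Figure D1:**
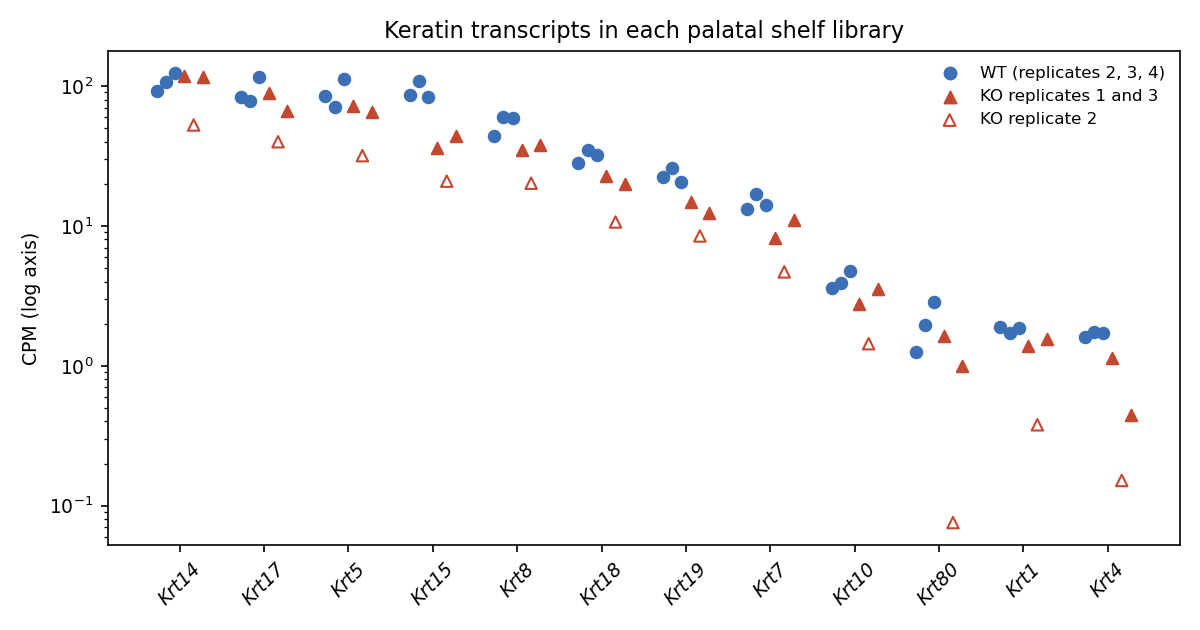
CPM (log axis) of the 12 keratins with a mean of at least 1 CPM, 1 point per library, circles for WT and triangles for KO, with KO replicate 2 as an open triangle. The groups overlap for Krt14, Krt17, Krt5 and Krt80 and separate for the other 8, and KO replicate 2 is the lowest point for each of the 12.

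The 3 basal keratins differed from each other in how the groups lay. Krt5, the type II keratin of basal cells, stood at 85.2, 70.4 and 112 CPM in WT replicates 2, 3 and 4 and at 71.5, 31.8 and 65.7 CPM in KO replicates 1, 2 and 3. KO replicate 1 lay above WT replicate 3, so the groups overlapped, and the log2 fold change of -0.66 (SE 0.31) did not pass (edgeR, adjusted p = 0.372), nor did that of -0.39 without KO replicate 2 (adjusted p = 0.392). Krt14, its type I partner, stood at 92.8, 106 and 124 CPM in the WT and at 119, 52.7 and 116 CPM in the KO. KO replicates 1 and 3 lay within the WT range and only KO replicate 2 below it. The log2 fold change of Krt14 was -0.16 (SE 0.29, edgeR, adjusted p = 0.813) and turned to 0.12 (SE 0.11, adjusted p = 0.652) without KO replicate 2.

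Krt15, another type I keratin of the basal layer, had the most negative log2 fold change of the 8 most abundant keratins. It stood at 85.7, 109 and 83.9 CPM in WT replicates 2, 3 and 4 and at 36.2, 20.9 and 43.7 CPM in KO replicates 1, 2 and 3. All 3 KO libraries lay far below all 3 WT libraries, with group means of 92.8 ± 13.8 and 33.6 ± 11.6 CPM (SD, n = 3 each). The log2 fold change of -1.46 (SE 0.26) missed the threshold with all 6 libraries (edgeR, adjusted p = 0.0771). Without KO replicate 2, Krt15 fell 2.34-fold, a log2 fold change of -1.22 (SE 0.14, edgeR, adjusted p = 0.00405).

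Of the 5 simple keratins 4 were tested, and in each of these every KO library lay below every WT library. The same held for 11.2% of all genes and for 11 of the 12 pan-epithelial markers. Krt8, the type II keratin of simple epithelia, stood at 44.0, 60.4 and 58.8 CPM in WT replicates 2, 3 and 4 and at 34.9, 20.2 and 37.8 CPM in KO replicates 1, 2 and 3. Krt18, its type I partner, stood at 28.3, 35.1 and 31.9 CPM in the WT and at 22.8, 10.7 and 20.1 CPM in the KO. The margin was narrower for Krt8 and Krt18 than for Krt15. The log2 fold changes of -0.81 (SE 0.24) for Krt8 and -0.83 (SE 0.26) for Krt18 did not pass (edgeR, adjusted p = 0.25 and 0.273). Without KO replicate 2, Krt18 fell 1.49-fold (edgeR, adjusted p = 0.0471), while Krt8, at -0.59 on the log2 scale, did not pass (adjusted p = 0.0743).

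Krt19, the smallest keratin, which lacks most of the tail domain, stood at 22.4, 26.0 and 20.5 CPM in WT replicates 2, 3 and 4 and at 14.7, 8.48 and 12.3 CPM in KO replicates 1, 2 and 3. The groups did not overlap, and the log2 fold change was -0.95 (SE 0.21, edgeR, adjusted p = 0.143). Without KO replicate 2, Krt19 fell 1.71-fold (edgeR, adjusted p = 0.0276). Krt7, a type II keratin of ducts and glands, stood at 13.2, 17.03 and 14.1 CPM in the WT and at 8.23, 4.69 and 11.05 CPM in the KO. Its groups did not overlap either, but its log2 fold change of -0.88 (SE 0.29) passed in neither fit (edgeR, adjusted p = 0.285, and 0.119 without KO replicate 2, where it was -0.62). Krt20, the fifth simple keratin and a marker of gut epithelium and Merkel cells, had 0 to 5 counts a library. On the gene map Krt15 and Krt19 are neighbours among the listed keratins of chromosome 11, and Krt8 and Krt18 are neighbours on chromosome 15, where Krt18 is the only type I gene listed.

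**Figure D2:**
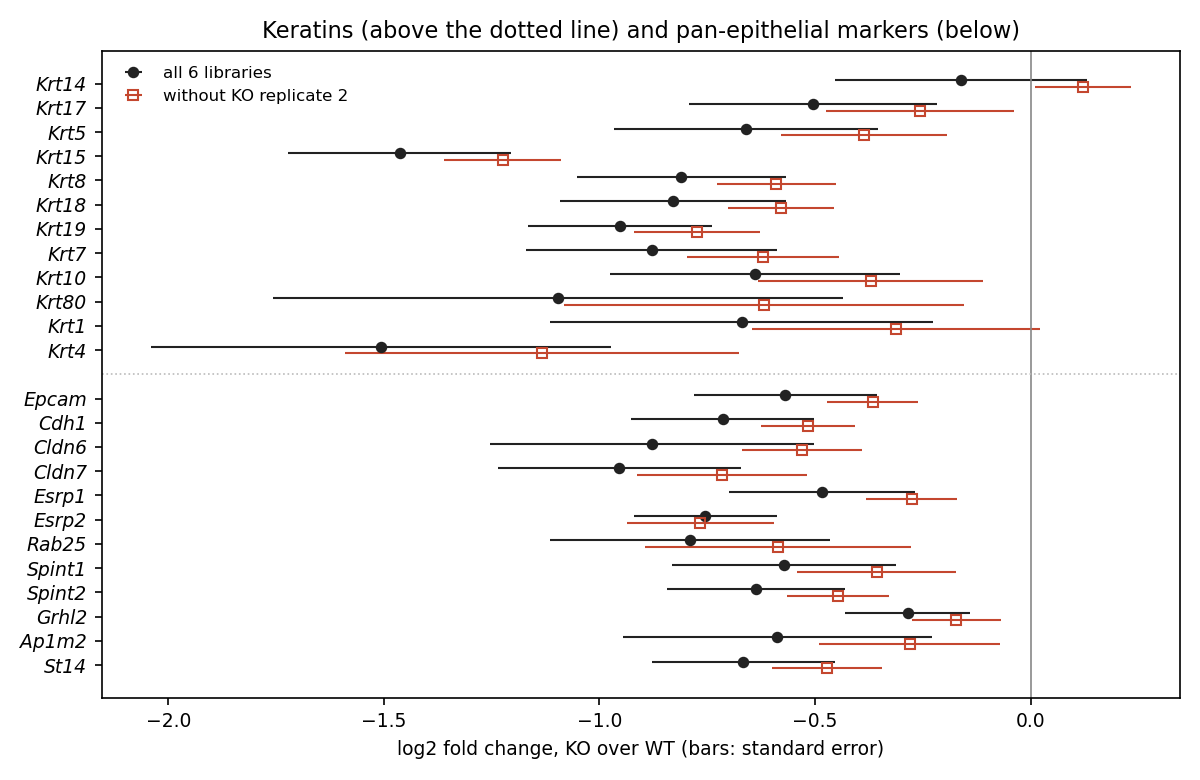
Log2 fold change of KO over WT with its standard error for the 12 named keratins and, below the dotted line, the 12 pan-epithelial markers, fitted with all 6 libraries (filled) and without KO replicate 2 (open). Krt15 lies at -1.46 and -1.22, Krt14 near 0 on opposite sides in the 2 fits, and the epithelial markers between -0.95 and -0.17.

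Of the periderm keratins, Krt17 stood at 83.6, 78.7 and 117 CPM in WT replicates 2, 3 and 4 and at 89.8, 39.96 and 66.8 CPM in KO replicates 1, 2 and 3. KO replicate 1 lay inside the WT range, and the log2 fold change of -0.50 (SE 0.29) did not pass (edgeR, adjusted p = 0.439), nor did that of -0.26 without KO replicate 2 (adjusted p = 0.639). Krt6a, a periderm keratin named here although its symbol ends in a letter, stood at 6.19, 8.16 and 5.55 CPM in the WT and at 7.403, 0.454 and 3.92 CPM in the KO. Its groups overlapped (log2 fold change -0.74, SE 0.66, edgeR, adjusted p = 0.612, and -0.25 without KO replicate 2), and 64.6% of its 25-base stretches were shared with other genes, most often Krt6b, so its level is uncertain. Krt6b itself stood at 0.179 to 0.783 CPM in the WT and 0.110 to 0.506 CPM in the KO. Krt16, a keratin of activated epidermis, had 1 count in all 6 libraries, and 57.5% of its stretches were shared.

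The keratins of layers above the basal one were present at low levels. Krt10 stood at 3.59, 3.90 and 4.78 CPM in WT replicates 2, 3 and 4 and at 2.78, 1.44 and 3.54 CPM in KO replicates 1, 2 and 3. Its type II partner Krt1 stood at 1.89, 1.70 and 1.85 CPM in the WT and at 1.39, 0.378 and 1.55 CPM in the KO. In both genes the groups separated by a narrow margin and the log2 fold changes of -0.64 for Krt10 and -0.67 for Krt1 did not pass (edgeR, adjusted p = 0.409 and 0.496). They were -0.37 for Krt10 and -0.31 for Krt1 without KO replicate 2 (adjusted p = 0.543 and 0.706).

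Krt4, the type II keratin of oral and oesophageal lining, stood at 1.60, 1.75 and 1.72 CPM in WT replicates 2, 3 and 4 and at 1.14, 0.151 and 0.442 CPM in KO replicates 1, 2 and 3. The WT libraries were close together and the KO libraries spread widely below them, with 18, 2 and 8 counts (log2 fold change -1.51, SE 0.53, edgeR, adjusted p = 0.307, and -1.13 with an adjusted p of 0.258 without KO replicate 2). Its type I partner Krt13 had 0 to 5 counts a library, too few to test. Krt80, a type II keratin found widely in differentiating epithelia, stood at 1.25, 1.97 and 2.84 CPM in the WT and at 1.65, 0.0757 and 0.994 CPM in the KO, with overlapping groups (edgeR, adjusted p = 0.462). Its log2 fold change of -1.10 was -0.62 without KO replicate 2, where it had 1 count.

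Krt75, a type II keratin of the companion layer of hair follicles, had 24, 21 and 19 counts in WT replicates 2, 3 and 4 and 1, 5 and 6 counts in KO replicates 1, 2 and 3. This was 0.854, 0.941 and 0.818 CPM against 0.0633, 0.378 and 0.331 CPM, with no overlap, and the log2 fold change of -1.75 (SE 0.56) did not pass (edgeR, adjusted p = 0.278), nor did that of -2.06 without KO replicate 2 (adjusted p = 0.187). Among keratins too low to test with all libraries, Krt23 had 12, 12 and 2 counts in the WT and 1, 4 and 0 in the KO (tested without KO replicate 2 only, edgeR, adjusted p = 0.32), and Krt24 had 6, 7 and 10 against 2, 1 and 2. Krt222, a keratin-like gene without a full rod domain, had 2 to 4 counts a library in the WT and 3 to 7 in the KO. None of the 13 hair shaft genes exceeded 5 counts in a library, the highest being Krt36 in WT replicate 4.

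The make-up of the keratin counts differed between the groups mainly in Krt14 and Krt15. Of all keratin counts, Krt15 took 18.4%, 21.1% and 14.6% in WT replicates 2, 3 and 4 and 8.93%, 10.8% and 11.5% in KO replicates 1, 2 and 3. Krt14 took 19.9%, 20.6% and 21.5% in the WT and 29.3%, 27.2% and 30.5% in the KO. For both genes the groups did not overlap, and counting error was at most 1.76 percentage points to either side in a library (95% Wilson interval). Krt5 took 17.1% ± 3.05 in the WT and 17.1% ± 0.631 in the KO, and Krt8 took 10.5% ± 1.17 and 9.65% ± 0.931 (SD, n = 3 each). Krt14, Krt17, Krt5 and Krt15 together took 73.7% ± 2.68 in the WT and 76.6% ± 1.55 in the KO (SD, n = 3 each). Shares sum to a fixed total, so a lower share of one keratin raises the others.

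**Figure D3:**
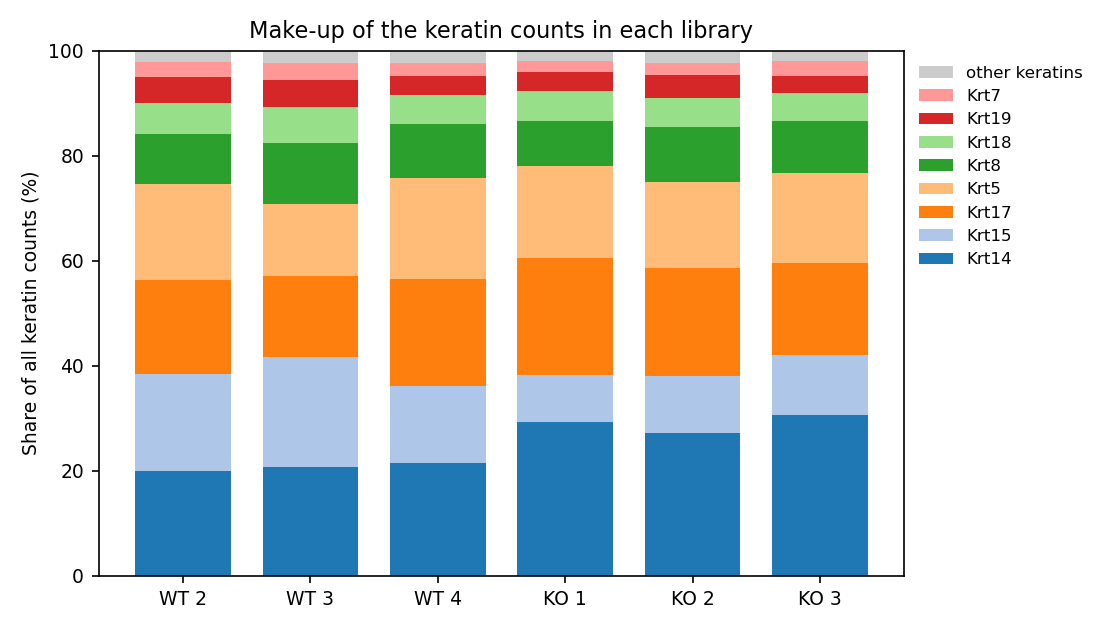
Share of all keratin counts (percent) taken by each of the 8 most abundant keratins in each library, stacked, with the remaining keratins in grey. Krt15 takes 14.6% to 21.1% of the WT bars and 8.93% to 11.5% of the KO bars, and Krt14 19.9% to 21.5% and 27.2% to 30.5%.

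The ratio of Krt15 to Krt14, which does not depend on library size or on the other keratins, was 0.924, 1.02 and 0.679 in WT replicates 2, 3 and 4 and 0.305, 0.397 and 0.375 in KO replicates 1, 2 and 3. KO replicate 2, which had the lowest CPM of both Krt15 and Krt14, lay beside the other KO libraries here. The difference was -1.28 on the log2 scale, and an exact permutation test, two-sided, gave p = 0.1, below which 3 libraries against 3 cannot go (0.185 adjusted over the 24 ratios of single genes computed, none of which can pass). It was -1.35 without KO replicate 2. The ratio of Krt15 to Krt5 separated the groups as well, at 0.752 to 1.54 in the WT and 0.506 to 0.665 in the KO. The ratio of Krt5 to Krt14 was 0.664 to 0.919 in the WT and 0.564 to 0.603 in the KO. The ratio of Krt18 to Krt8, the simple pair, was 0.543 to 0.643 in the WT and 0.528 to 0.652 in the KO, and overlapped. These single-gene ratios were chosen after values were seen.

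Set against other epithelial transcripts, the keratin total did not separate the groups. All 48 keratins summed to 466, 514 and 575 CPM in WT replicates 2, 3 and 4 and to 405, 194 and 381 CPM in KO replicates 1, 2 and 3. The pan-epithelial list, which holds Epcam, the cadherin Cdh1, claudins and epithelial splicing factors, summed to 378, 461 and 456 CPM in the WT and to 312, 193 and 336 CPM in the KO. The ratio of keratin counts to pan-epithelial counts was 1.23, 1.12 and 1.26 in the WT and 1.30, 1.004 and 1.13 in the KO, so the groups overlapped. The log2 difference of that ratio was -0.077, and 0.014 without KO replicate 2. The part that a lower epithelial transcript level has in the lower keratin values was not tested.

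Within this comparison some single keratins separated the groups in their ratio to the epithelial list. Krt15, Krt8 and Krt4 lay lower in the KO and Krt14 higher, while the other named keratins overlapped. On the CPM scale 23.5% of all genes did not overlap, in either direction, a share that does not cover ratios. These ratios too were chosen after values were seen. The ratio of Krt15 to the list was 0.227, 0.236 and 0.184 in WT replicates 2, 3 and 4 and 0.116, 0.108 and 0.130 in KO replicates 1, 2 and 3, a log2 difference of -0.86. The ratio of Krt14 to the list was 0.245, 0.230 and 0.271 in the WT and 0.381, 0.273 and 0.346 in the KO, a log2 difference of 0.41. The groups did not overlap for Krt15 or Krt14 (exact permutation test, two-sided, p = 0.1 for each, 0.185 adjusted over 24 ratios). With 3 libraries against 3 no smaller p is possible. Krt4, at 2 to 18 counts a library in the KO, separated as well, with a log2 difference of -1.34, and -0.84 without KO replicate 2. Krt10, Krt1 and Krt80 overlapped. The margin for Krt14 was narrow, between WT replicate 4 and KO replicate 2. The ratio of the 5 simple keratins together to the list was 0.275 to 0.301 in the WT and 0.230 to 0.258 in the KO, a log2 difference of -0.24, and -0.20 without KO replicate 2. Of its 4 tested members Krt8 alone separated the groups on this scale, at 0.116 to 0.131 in the WT and 0.105 to 0.112 in the KO, while Krt18, Krt19 and Krt7 overlapped. Krt5 and Krt17 overlapped between the groups on this scale, with log2 differences of -0.065 and 0.097. The ratio of Krt14 to Trp63, the gene of the basal epithelial regulator p63, overlapped too, at 1.43 to 1.64 in the WT and 0.875 to 1.85 in the KO, whereas that of Krt15 to Trp63 was 1.07 to 1.68 and 0.347 to 0.564.

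**Figure D4:**
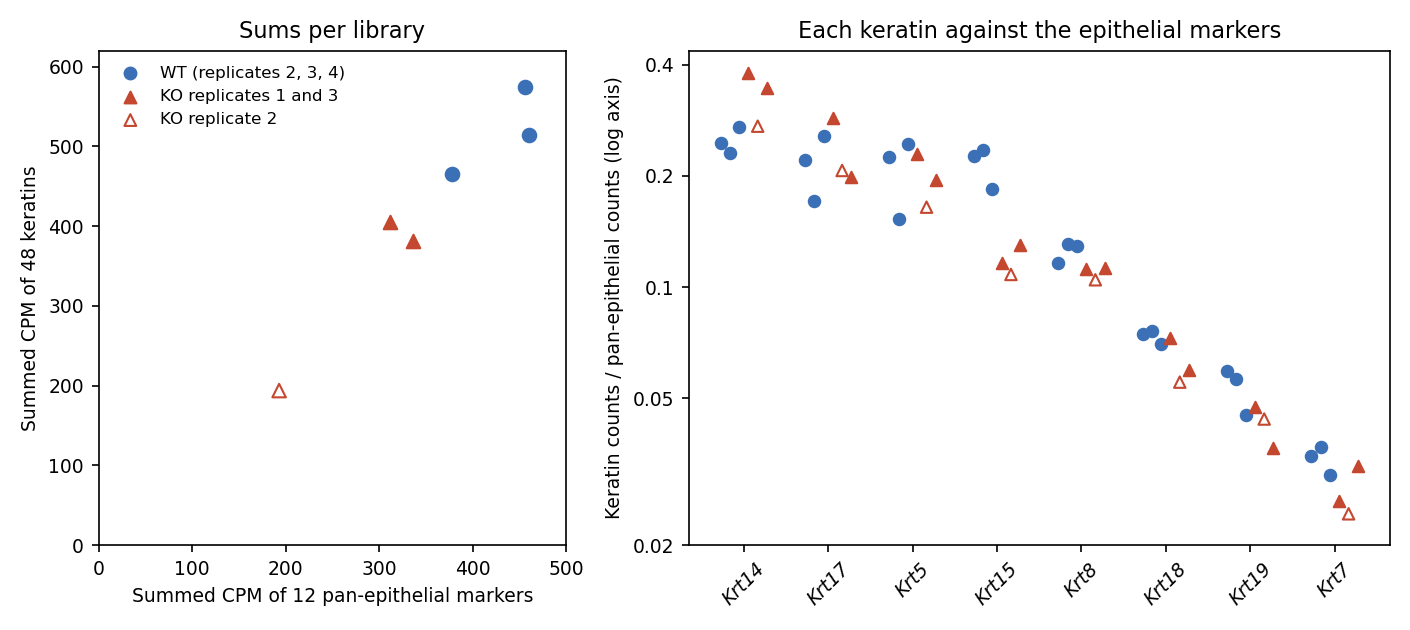
Left, summed CPM of the 48 keratins against summed CPM of the 12 pan-epithelial markers, 1 point per library. Right, counts of each of 8 keratins divided by the pan-epithelial counts of the same library (log axis): all KO points lie below all WT points for Krt15 and Krt8 and above them for Krt14.

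Other genes of the epithelium and of intermediate filaments give the setting. Of the 12 pan-epithelial genes 0 passed and 12 had a negative log2 fold change (median -0.65, and -0.46 without KO replicate 2). Epcam, an epithelial adhesion molecule, stood at 69.3, 84.7 and 83.3 CPM in the WT and at 65.3, 36.4 and 58.2 CPM in the KO (edgeR, adjusted p = 0.323). Cdh1, the epithelial cadherin, stood at 101, 123 and 120.4 CPM in the WT and at 73.3, 48.4 and 88.4 CPM in the KO (adjusted p = 0.248), and fell without KO replicate 2 (adjusted p = 0.0483). The smallest p of that list was that of the splicing factor Esrp2 (log2 fold change -0.75, edgeR, adjusted p = 0.138).

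Of 10 basal epithelial genes 0 passed (median -0.39, and -0.26 without KO replicate 2), with the smallest p for Cdh3, the placental cadherin (log2 fold change -0.55, edgeR, adjusted p = 0.21). In that list Trp63 had a log2 fold change of -0.034, and 0.036 without KO replicate 2. Of 9 genes that anchor keratin filaments to desmosomes and hemidesmosomes 0 passed (median -0.47, and -0.28 without KO replicate 2), with the smallest p for the envelope protein Evpl (-0.67, adjusted p = 0.317, and -0.44 without KO replicate 2). Dst, which encodes the hemidesmosome linker dystonin, was the 1 member with a positive log2 fold change, 0.55 (edgeR, adjusted p = 0.367) and 0.17 without KO replicate 2. Every KO library lay above every WT library for Dst, as in 1746 of the 14233 genes tested. The summed level of the anchors overlapped, at 907 to 998 CPM in the WT and 852, 911 and 805 CPM in KO replicates 1, 2 and 3. Only KO replicate 2 reached the WT range. Dst stood at 436 CPM in that library, against 199 to 242 CPM in the others. Of 10 periderm and differentiation genes 0 passed (median -0.53, and -0.34 without KO replicate 2), with the smallest p for Klf5 (-0.57, adjusted p = 0.195). Of 9 cornified envelope genes 2 were abundant enough to test and 0 passed, with log2 fold changes of 0.42 for Sbsn and -0.41 for Tgm1 that were 0.024 and -0.18 without KO replicate 2. The medians of the epithelial, basal, anchor and periderm lists lay below the all-gene median of 0.011, as that of the keratins did.

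Of 6 ciliated and nasal epithelium genes 3 were tested and 1 fell, where 0.436% of all genes fell. This was Bpifa1, a secreted protein of nasal airway epithelium (edgeR, adjusted p = 0.0195). It stood at 2.71, 2.06 and 1.64 CPM in the WT and 0.0633, 0 and 0 CPM in the KO. Bpifa1 thus passed the abundance filter through the WT libraries alone, which limits what its call shows. That list summed to 8.83 to 20.3 CPM in the WT and 0.829 to 5.50 CPM in the KO, without overlap, with most of the sum from Cyp2f2 at 6.03 to 15.5 CPM in the WT and 0.110 to 4.49 CPM in the KO (adjusted p = 0.317). Nasal epithelium also makes simple and basal keratins, and its part in the keratin values was not tested. Of 5 palatal mesenchyme genes 0 passed, with 0.44 for Prrx1 (edgeR, adjusted p = 0.285, and 0.29 without KO replicate 2). Their median of -0.12 was -0.045 without KO replicate 2, -0.27 without KO replicate 1 and 0.040 without WT replicate 4, so it gives no stable direction.

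Of 14 other intermediate filament genes 13 were tested and 1 fell, where 0.436% of all genes fell. This was Lmna, which encodes the nuclear lamins A and C. Lmna stood at 140, 121 and 111 CPM in WT replicates 2, 3 and 4 and at 57.4, 49.9 and 41.4 CPM in KO replicates 1, 2 and 3. The groups lay far apart, and Lmna fell 2.49-fold (log2 fold change -1.32, SE 0.15, edgeR, adjusted p = 0.0222). Without KO replicate 2 it fell as well (adjusted p = 0.0105), and so did Synm, the gene of synemin (log2 fold change -1.97, adjusted p = 0.00978). The list median was -0.023, and -0.41 without KO replicate 2. Vim, the vimentin of mesenchyme, had a log2 fold change of -0.31 (edgeR, adjusted p = 0.347).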

How the data were processed

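Polyadenylated RNA from dissected E14.25 palatal shelves was made into stranded libraries and sequenced as paired 25-base reads, per the labels' protocols. Per the submitters' processing notes, the tools were TopHat2, SAMtools and HTSeq and the build was mm9. Neither annotation nor strand setting was given in the sources used here. Each library had a file of raw counts, deposited without normalisation, with 1 line for each gene symbol. Category lines of the counting program held 33.6% to 65.8% of the listed pairs and stayed out of library sizes and tests.

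Groups and replicate numbers came from the titles. Same-group libraries differed beyond sampling noise (chi-square per degree of freedom 11.5 to 163). Counts were filtered with filterByExpr, scaled with TMM factors (trimmed mean of M-values) and tested with edgeR 4.0.16 (quasi-likelihood, robust, R 4.3.3) over all 14233 genes that passed, with Benjamini-Hochberg adjustment at 0.05. The fit was also run on simulated counts with the same dispersion for every gene and no outlying library. That run does not show how the fit behaves with a library such as KO replicate 2. Standard errors are the log2 fold change divided by the root of the F statistic. Keratin classes, lists and tests were chosen with earlier results of these data known. The named keratins are those with a mean of at least 1 CPM, with the highest of lower classes as examples. From each other list, members past the threshold or the 1 with the smallest p were named, and Epcam and Cdh1 always. Krt24, Krt222, Trp63, Dst, Tgm1, Cyp2f2 and Vim were named after their values were seen. Alternatives were other size factors, DESeq2 1.42.0, limma 3.58.1 voom, filters, a replicate block and leaving out libraries. Wilson intervals and limits from a count of 0 cover counting error alone, because PCR copies were not told apart. Genes overlapping on opposite strands could share counts if counting ignored strand. Coordinates are of GRCm38.p6 and were used only with the printed sequences.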

Additional observations from a re-analysis of the deposited data

How the results depend on the processing

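The count of keratins past the threshold, 0 with all 6 libraries, was 3 with DESeq2 (Krt15, Krt19 and Krt8), 2 with quality-weighted limma voom (Krt15 and Krt19), 1 without an abundance filter (Krt15) and 4 with the replicate block, and ranged from 0 to 3 with a library left out. It stayed at 0 with median-of-ratios or upper-quartile factors, limma voom, a filter of 1 CPM in 3 libraries, and Rn45s and Lars2 left out. Over all genes the count of 76 was 486 with DESeq2, 359 with quality weights and 298 with the replicate block, and ranged from 0 to 306 with a library left out. It was 0 without WT replicate 2 or 3 (edgeR, 1102 and 1117 genes at an unadjusted p under 0.05), 3 without WT replicate 4, 20 without KO replicate 1, 11 without KO replicate 3 and 306 without KO replicate 2. The share of lower calls was 81.6%, against 66.9% with DESeq2, 64.1% with quality weights and 65.4% with the replicate block. Krt14 changed sign with quality weights (0.072) and, in the leave-one-out fits of -0.34 to 0.12, without KO replicate 2 (0.12). The other 11 named keratins stayed negative in all 15 alternatives. Krt15 ranged from -1.70 to -1.22 over the leave-one-out fits (edgeR, adjusted p = 0.00405 to 0.316) and passed in 5 of 15. The median keratin log2 fold change of -0.83 ranged from -0.99 to -0.60 over the leave-one-out fits, was -1.04 with the replicate block and lay between -0.86 and -0.62 in the others. The log2 ratio of simple keratins to the epithelial list, -0.24, was -0.14 against Cdh1 alone and -0.29 against Epcam alone. That of all keratins was 0.020 and that of basal keratins 0.035 against Cdh1 alone, and they were -0.13 and -0.11 against Epcam alone. The cause of these changes was not tested. In the replicate block fit WT replicate 4 and KO replicate 1 have no counterpart in the other group. Its KO effect therefore rests on replicates 2 and 3 alone, KO replicate 2 included, and its calls carry that limit. The deviations of the shared replicate numbers correlated at 0.24 for replicate 2 and -0.15 for replicate 3, so the numbers were not taken as pairs. The single-gene ratios and their leave-one-out values were added after seeing the data, and Krt15 to Krt14 ranged from -1.45 to -1.15. Below about 10 counts a library, keratins could not be compared at this depth.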
